A study of Mus musculus with 43 samples.

Results

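Synaptonemal complex genes encode the protein zipper that joins paired homologous chromosomes in meiotic prophase. The 8 genes described here were Sycp1, Sycp2, Sycp3, Syce1, Syce2, Syce3, Tex12 and Hormad2. They were matched by their GENCODE vM21 symbol to the gene identifier, ignoring the version, and all 8 were found among 55401 identifiers in each of 10 RNA tables of mouse testis. Their promoters, reaching 3000 bp from any annotated transcript start, were looked up in 33 CUT&Tag peak lists for 7 histone marks. CUT&Tag maps a mark by cutting the DNA beside the bound antibody. RNA was measured at postnatal day 7 (P7), in 3 WT and 3 Prmt1-dKO samples of testis RNA (bulk RNA-seq) and in 2 WT and 2 Prmt1-dKO samples of sorted spermatogonia (Smart-seq2, a protocol for few cells). Prmt1-dKO mice had both Prmt1 alleles floxed and a tamoxifen-inducible CreERT2, made together with EGFP from the Ddx4 locus, whose promoter is active in the germline. The Cre line is a C57BL/6J strain. All of these mice, WT included, were given tamoxifen on 3 days according to the labels. The labels give WT for every control, whereas the study's sorting methods name heterozygous animals with the same Cre and a single floxed allele. The labels also give spermatogonia as the cell type of the bulk libraries, while their protocol describes testis RNA. Peak lists came from WT C57BL/6J testicular cells at P7 and P14 and, for H4R3me2s at P7 alone, also from Prmt1-dKO cells, with 2 or 3 replicate lists per mark, age and genotype. The titles of the P14 samples say spermatogonia and their cell type label says spermatocyte, and age and cell composition cannot be told apart in these lists. Nothing in the labels says that replicates came from separate animals, so p-values measure only the spread between these samples.

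In the complex, Sycp2 and Sycp3 proteins build the axial cores that become the lateral elements, and Hormad2 binds those axes where they are not yet synapsed. Sycp1 forms the transverse filaments that bridge the axes. Syce1, Syce2, Syce3 and Tex12 form the central element, in which the filaments from both sides meet. The complex assembles in spermatocytes, and transcription of its genes starts before that, in germ cells on the way into meiosis.

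The promoters that hold letters of 3 germline-related motifs are printed here, because H3K4me3 and arginine methylation peaks described further on lie over or beside them. Sequences were taken from RefSeq (GRCm38.p6), from 250 bases before to 50 after an annotated start, and all 8 genes matched, Syce2 and Syce3 with 2 starts each. Capitals mark GCGGGAA, the core of E2F sites, CACGTG, the E-box bound by MAX dimers, and CNCCTCAG, the motif described for STRA8, each on either strand. The Sycp3 promoter (chr10:88459337-88459636) lies on the plus strand, Tex12 (chr9:50561219-50561518) on the minus strand, Syce2 (chr8:84872008-84872307) on the plus strand, Sycp1 (chr3:102936051-102936350) on the minus strand and Hormad2 (chr11:4441033-4441332) on the minus strand.
Sycp3: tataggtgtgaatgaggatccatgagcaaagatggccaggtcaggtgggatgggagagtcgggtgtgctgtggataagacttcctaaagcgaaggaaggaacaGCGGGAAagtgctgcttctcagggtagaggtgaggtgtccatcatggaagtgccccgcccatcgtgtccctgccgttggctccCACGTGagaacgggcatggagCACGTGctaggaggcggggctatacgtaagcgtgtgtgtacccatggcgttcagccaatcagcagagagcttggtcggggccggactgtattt
Tex12: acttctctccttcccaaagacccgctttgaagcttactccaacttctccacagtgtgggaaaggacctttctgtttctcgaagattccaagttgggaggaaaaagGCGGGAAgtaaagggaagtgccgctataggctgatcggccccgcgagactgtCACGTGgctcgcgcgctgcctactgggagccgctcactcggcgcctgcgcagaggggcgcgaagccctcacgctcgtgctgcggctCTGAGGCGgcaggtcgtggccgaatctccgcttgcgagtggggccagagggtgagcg
Syce2: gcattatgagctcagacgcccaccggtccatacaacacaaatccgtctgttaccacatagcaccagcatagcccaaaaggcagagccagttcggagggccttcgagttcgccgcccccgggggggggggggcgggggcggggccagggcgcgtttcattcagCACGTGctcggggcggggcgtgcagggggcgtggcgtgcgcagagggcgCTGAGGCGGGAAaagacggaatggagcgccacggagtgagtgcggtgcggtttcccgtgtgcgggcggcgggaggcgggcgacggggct
Sycp1: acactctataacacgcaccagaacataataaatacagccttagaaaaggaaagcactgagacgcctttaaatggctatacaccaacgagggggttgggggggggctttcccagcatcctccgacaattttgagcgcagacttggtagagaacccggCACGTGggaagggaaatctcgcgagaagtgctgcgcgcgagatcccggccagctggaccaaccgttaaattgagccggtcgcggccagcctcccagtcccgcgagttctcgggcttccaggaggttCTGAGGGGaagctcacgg
Hormad2: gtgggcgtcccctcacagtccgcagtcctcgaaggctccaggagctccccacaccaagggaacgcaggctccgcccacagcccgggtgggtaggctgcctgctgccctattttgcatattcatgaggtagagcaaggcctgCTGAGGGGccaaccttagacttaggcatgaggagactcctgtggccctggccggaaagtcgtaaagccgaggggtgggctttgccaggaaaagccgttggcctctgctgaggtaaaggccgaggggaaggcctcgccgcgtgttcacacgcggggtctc

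GCGGGAA was present in the promoters of 3 of the 8 genes, Sycp3, Syce2 and Tex12, and in those of 5.29% of 27025 genes (4.6% of all 32851 promoters of the same length). CACGTG was present in these 3 and in Sycp1, against 8.09% of genes (7.15% of promoters), and Sycp3 held it at 2 positions, -64 and -43 from the start. Both motifs together occurred in 3 of 8 genes and in 0.514% of all genes (0.457% of promoters). CNCCTCAG was found in Sycp1, Syce2, Tex12 and Hormad2, against 9.12% of genes (7.94% of promoters), and in Syce2 its letters overlap GCGGGAA. Of 5 other motifs searched on both strands, TAACNG (MYB) was in 5 members against 25.9% of genes, GGGCGG (GC box) in 5 against 38.2%, CCAAT in 2 against 41.1%, GTTGCCA (RFX) in Syce3 against 5.02% and TGACGT (CREB) in 0 against 8.37%. Letters of GCGGGAA and GGGCGG can overlap. The window held from 5 CpG in the upstream Syce3 start to 33 in the Syce2 start shown, and 43.6% and 92.3% of all promoters held no more. These are matches of letters, not measured binding sites.

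The libraries held 12396345 to 16598249 counts in testis and 15610392 to 18547103 in sorted spermatogonia. The biological coefficient of variation was 0.155 in testis and 0.767 in the sorted cells. Counts above 0 were found for 15587 and 17106 genes in the WT sorted libraries and for 20194 and 21404 in the Prmt1-dKO ones. Levels compared between libraries are CPM, counts relative to the library's total after TMM scaling. Somatic markers were also uneven between the sorted genotypes. The summed level of 6 macrophage markers was 0 to 5.74 CPM in WT, with 5 or 6 of them at 0, and 19.1 to 20.5 CPM in Prmt1-dKO, with Csf1r at 96 and 125 counts. All 4 endothelial markers were at 0 in both WT libraries and above 0 in both Prmt1-dKO libraries (3.15 to 3.64 CPM). Sums of 10 Sertoli cell markers (237 to 262 against 280 to 391 CPM), 6 Leydig cell markers (0.366 to 8.17 against 10.3 to 13.2 CPM, with 5 against 3 at 0) and 5 peritubular markers (5.08 to 9.62 against 7.22 to 10.5 CPM) lay closer together. Yet 3 or 4 of the peritubular markers were at 0 in WT and 0 or 1 in Prmt1-dKO. Cnn1 had 0 and 0 counts in WT and 21 and 52 in Prmt1-dKO, whereas Tagln had 45 and 97 against 8 and 2. Some spermatogonial genes were nearly missing from a single WT library, as Zbtb16 with 1107 and 29 counts and Sohlh2 with 1396 and 57. These libraries thus stand apart in more than genotype, and the part of that in the results on sorted cells was not tested.

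Prmt1, the targeted gene, had 237, 219 and 247 CPM in WT testis and 146, 199 and 158 in Prmt1-dKO testis, a log2 fold change of -0.49 (SE 0.13, edgeR quasi-likelihood test, FDR 0.0334). Its FDR was 0.0696 to 0.105 in 5 of the 6 fits that left out a library and 0.00015 without Prmt1-dKO replicate 2, and 0.0814 with a replicate block. In sorted cells it had 216 and 149 CPM in WT and 112 and 86.5 in Prmt1-dKO, and the log2 fold change was -0.88 (SE 0.26, edgeR FDR 0.133, DESeq2 adjusted p 0.0172). Without WT replicate 1 it was -0.57 (edgeR FDR 0.0268) and without WT replicate 2 it was -1.10 (edgeR FDR 1.46e-05), while the edgeR FDR was 1 without either Prmt1-dKO library. Neither pair of groups overlapped. Only exons within the Prmt1 gene are floxed, so that reads of a deleted transcript still count for the gene.

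At P7 the synaptonemal complex genes were already well represented in RNA of sorted WT spermatogonia. Per unit of length, as TPM (a transcript's share of all transcripts, corrected for length), Syce2 was highest at 819 ± 100 TPM (SD, n = 2), above 99.0% of genes at 1 TPM or more. Syce3 followed with 529 ± 55.8 and Sycp1 with 288 ± 0.933 TPM. Syce1 (219 ± 30.4 TPM), Tex12 (211 ± 16.2) and Sycp3 (196 ± 15.6) overlapped from neighbour to neighbour. Hormad2 (68 ± 27.9 TPM) and Sycp2 (53.1 ± 8.82) were lowest and overlapped each other. Central element genes thus included the most abundant transcripts and axis genes the least abundant.

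In WT testis RNA the level of every member was lower. Syce2 was again highest with 114 ± 9.23 TPM (SD, n = 3). Sycp3 (57.6 ± 4.58 TPM) and Sycp1 (42.7 ± 8.37) came next without overlap, then Syce3 (28 ± 1.32) and Syce1 (25.6 ± 2.32), which overlapped. Tex12 (18.9 ± 2.47 TPM), Sycp2 (8.85 ± 0.802) and Hormad2 (6.53 ± 0.376) followed without overlap. The ratio of the mean TPM of sorted cells to that of testis ran from 3.41 for Sycp3 to 18.9 for Syce3, and as a share of all counts from 3.44 for Sycp2 to 32 for Syce3. The assays differ in library protocol, and the mean transcript length that RSEM assigned to Sycp1 was 1206 to 1354 bases in sorted cells and 2246 to 2798 in testis. Ratios between the assays were therefore not tested.

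In sorted spermatogonia all 8 genes were lower in both Prmt1-dKO libraries than in both WT libraries. Such separation occurred in 20.3% of the 16443 genes tested, and a log2 fold change below 0 in 44.1%. No member passed the test across genes: edgeR called 0 of all genes lower (0%) and 0 higher at an FDR below 0.05 and 2-fold. Without adjustment, p was below 0.05 for 7 of the 8 members in the lower direction, and for 7.35% of all genes. DESeq2, the tool of the study, gave adjusted p below 0.05 in the lower direction to 6 members (5.90% of genes), of which Sycp2, Syce2, Syce3 and Hormad2 were also at least 2-fold lower (3.93% of genes). The members' median log2 fold change was -0.87, beside 0.15 over all genes tested.

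**Figure D1:**
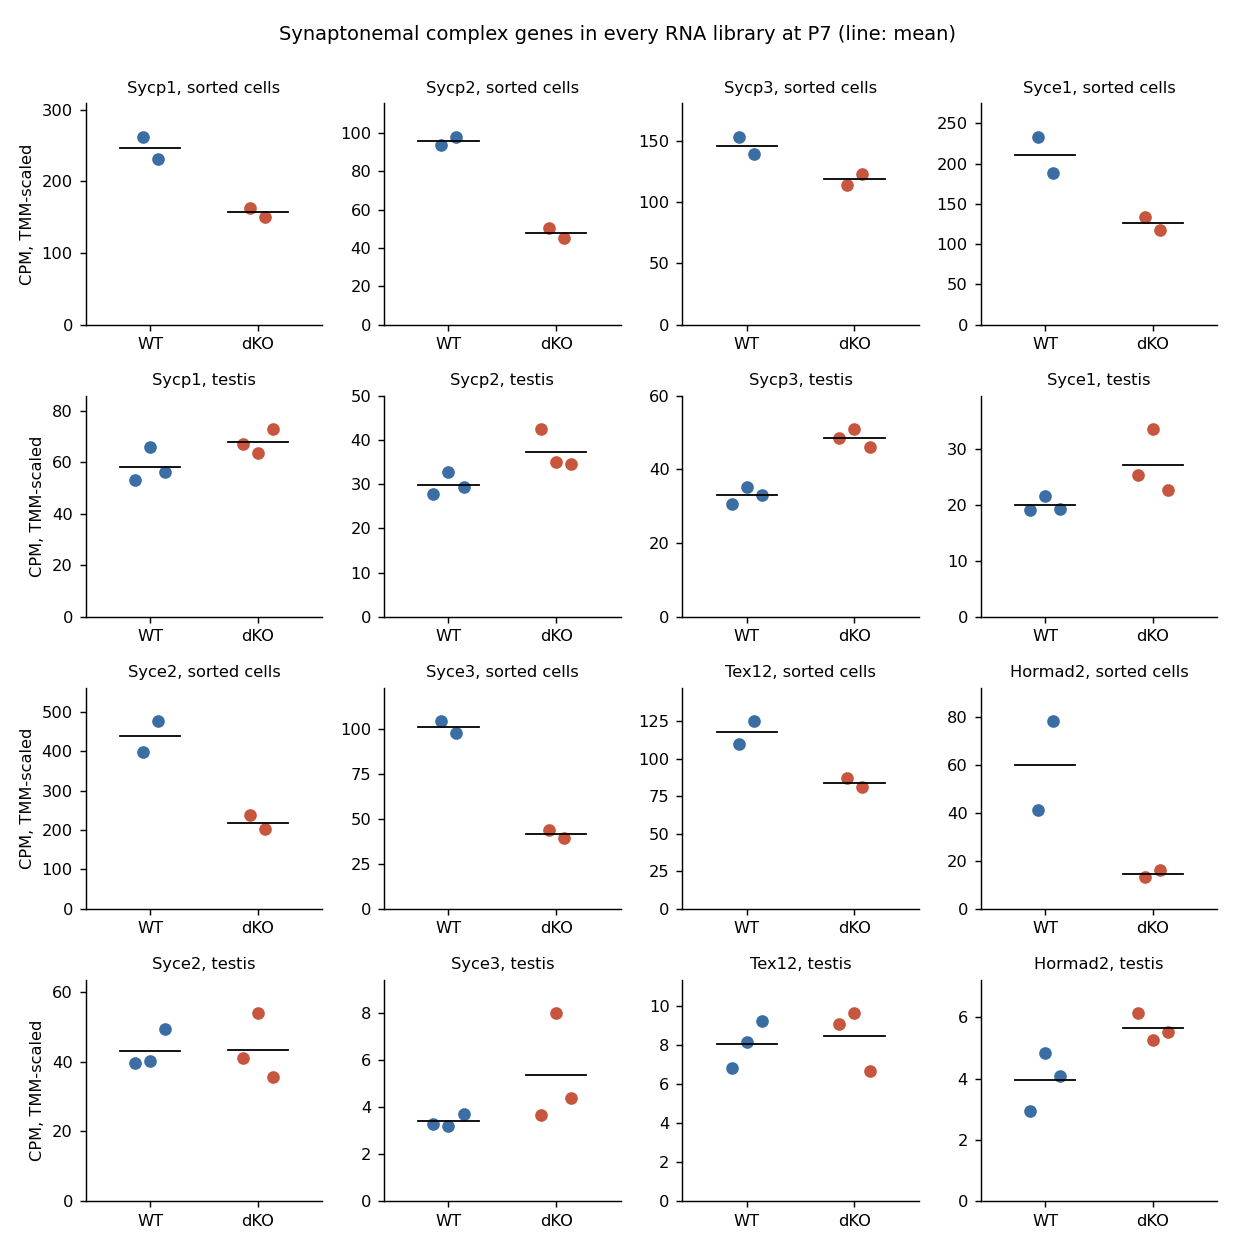
CPM (TMM-scaled within each assay, y axis from 0) of the 8 genes in every library at P7, with the Smart-seq2 panels (sorted cells) above the testis panels of the same genes. Each point is a library, WT in blue and Prmt1-dKO (dKO) in red, and the line is the mean; in sorted cells all dKO points lie below the WT points, while in testis the dKO points of 4 genes lie above all WT points and those of the other 4 overlap them.

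Among the axis genes, Hormad2 differed most in sorted cells. It had 41.3 and 78.2 CPM in WT and 13.3 and 16 CPM in Prmt1-dKO, a log2 fold change of -2.03 (SE 0.45, edgeR FDR 0.0774). Its WT libraries differed by a larger ratio than those of any other member. Sycp2 had 93.6 and 97.8 CPM in WT and 50.5 and 45.3 in Prmt1-dKO (log2 fold change -1.0, SE 0.21, edgeR FDR 0.0774). Sycp3 had 153 and 139 CPM in WT and 114 and 123 in Prmt1-dKO, the smallest difference of the 8 (log2 fold change -0.30, 95% interval -0.73 to 0.13, edgeR FDR 0.381). Among these axis genes the difference was thus smallest for Sycp3, whose interval includes 0, and largest for Hormad2.

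Sycp1, the transverse filament gene, had 262 and 231 CPM in WT and 163 and 151 CPM in Prmt1-dKO (log2 fold change -0.65, SE 0.16, edgeR FDR 0.0818). Its groups did not overlap.

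Of the central element genes, Syce3 was lowest relative to WT, with 104 and 97.3 CPM in WT and 43.6 and 39.1 CPM in Prmt1-dKO (log2 fold change -1.28, SE 0.21, edgeR FDR 0.0774). Syce2, the most abundant member, had 399 and 476 CPM in WT and 237 and 202 in Prmt1-dKO (log2 fold change -1.0, SE 0.17, edgeR FDR 0.0774). Syce1 had 233 and 189 CPM in WT and 134 and 117 in Prmt1-dKO (log2 fold change -0.75, SE 0.19, edgeR FDR 0.0862). Tex12 had 110 and 125 CPM in WT and 87 and 81.4 in Prmt1-dKO (log2 fold change -0.48, SE 0.18, edgeR FDR 0.21). Replicates of the same genotype were closer to each other than to the other genotype for all 4 central element genes.

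Leaving out either WT library added calls across all genes. Without WT replicate 1, edgeR gave 7 members an FDR below 0.05 in the lower direction beside 17.1% of all genes tested, and without WT replicate 2 it gave 6 beside 16.1%. Without either Prmt1-dKO library it gave 0 members and 0 genes, with 2 and 3 members at an unadjusted p below 0.05. In such fits a genotype has a single library, which is assumed to vary like the other genotype. Without adjusting for composition (library totals in place of TMM), all 8 members were lower as well, with a median of -1.05 beside -0.01 over all genes.

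The summed CPM of the 8 genes was 1397 and 1434 in WT sorted cells and 843 and 776 in Prmt1-dKO. Over the same libraries, the sum of 7 general germ cell markers such as Ddx4 and Dazl was 1068 and 1139 CPM in WT and 1378 and 1321 in Prmt1-dKO. The ratio of the first sum to the second was 1.31 and 1.26 in WT and 0.612 and 0.587 in Prmt1-dKO. Of these 7 markers 6 had a log2 fold change above 0, Ddx4 at 0.03, while Rbm44, a germ cell RNA-binding protein gene, had 2029 and 2071 counts in WT and 937 and 701 in Prmt1-dKO (log2 fold change -1.0, edgeR FDR 0.0774, DESeq2 adjusted p 0.00243). Sums of 6 differentiating spermatogonia markers (728 to 946 CPM in WT, 1087 to 1104 in Prmt1-dKO) and of 10 markers of undifferentiated spermatogonia (213 to 269 CPM in WT, 639 to 693 in Prmt1-dKO) were higher in Prmt1-dKO. Of the 10, 9 had a log2 fold change above 0 (median 1.59), from Bcl6b with 0 and 0 counts in WT and 180 and 256 in Prmt1-dKO, while Lhx1 was at -0.08. Of the 6, 5 were above 0 (median 0.25), with Kit at 0.17 and Dmrtb1 at 0.01. None of either list was called by edgeR, and the sums include Zbtb16 and Sohlh2, nearly missing from 1 WT library. Meiotic entry and early prophase genes had a summed level of 1897 to 2088 CPM in WT and 938 to 1029 CPM in Prmt1-dKO. In these RNA samples, fewer cells that transcribe the members and less RNA per cell cannot be told apart.

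Other genes of meiotic axes and synapsis showed a similar direction in sorted cells. Of 15 such partners, 13 had a log2 fold change below 0, with a median of -0.96, 9 had an unadjusted p below 0.05, 0 were called by edgeR and 8 were called lower by DESeq2. Rad21l, a meiotic cohesin subunit, had 246 and 129 counts in WT and 20 and 12 in Prmt1-dKO (log2 fold change -3.22, SE 1.10, edgeR FDR 0.174). Terb1, which ties telomeres to the nuclear envelope, had 882 and 1243 counts in WT and 146 and 105 in Prmt1-dKO (-2.76, SE 0.44, edgeR FDR 0.0774). Kash5, of the bridge from telomeres to the cytoskeleton, had 845 and 455 counts in WT and 97 and 63 in Prmt1-dKO (-2.70, SE 0.64, edgeR FDR 0.0816). Their genotypes did not overlap. Of the meiotic entry genes, 10 of the 10 tested were below 0, with a median of -1.28, 6 with an unadjusted p below 0.05, 0 called by edgeR and 6 called lower by DESeq2, and Mei1, needed to form meiotic DNA breaks, had 3473 and 1788 counts in WT against 224 and 248 in Prmt1-dKO. Prmt1-dKO libraries were lower for Ythdc2, a helicase needed to enter meiosis (5046 and 4274 against 1136 and 834 counts), and for Meiosin, a partner of STRA8 (2386 and 1680 against 564 and 380).

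In testis RNA the same genes took the other sign. All 8 members had a log2 fold change above 0, as did 52.1% of 16554 genes tested, with a median of 0.38 for the members beside 0.02 over all genes. No member was called: edgeR called 5.32% of genes higher and 1.78% lower at an FDR below 0.05 and 2-fold. Sycp3 alone had an FDR below 0.05, which 10.6% of genes had in the higher direction at any fold. For 4 members (Sycp2, Sycp3, Syce1 and Hormad2) every Prmt1-dKO library lay above every WT library, and the same held for 20.9% of all genes.

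Sycp3 had 30.7, 35.2 and 33 CPM in WT testis and 48.5, 50.9 and 46.2 in Prmt1-dKO testis (log2 fold change 0.56, SE 0.11, edgeR FDR 0.00877). Without WT replicate 1 its FDR was 0.0695. Sycp2 had 27.8, 32.7 and 29.3 CPM in WT and 42.5, 35.1 and 34.6 in Prmt1-dKO (0.32, SE 0.13, edgeR FDR 0.11). Without Prmt1-dKO replicate 2 the FDR of Sycp2 was 0.0305, and without Prmt1-dKO replicate 1 its log2 fold change was 0.20 (edgeR FDR 0.315). Hormad2 had 2.94, 4.84 and 4.08 CPM in WT and 6.13, 5.26 and 5.52 in Prmt1-dKO (0.51, SE 0.23, edgeR FDR 0.164), with a log2 fold change of 0.32 without WT replicate 1. Their Prmt1-dKO values all lay above WT, by little for Sycp2 and Hormad2.

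Sycp1 overlapped between genotypes, with 53, 65.8 and 56.1 CPM in WT testis and 67.2, 63.4 and 72.8 in Prmt1-dKO (log2 fold change 0.22, SE 0.12, edgeR FDR 0.235). Without WT replicate 1 the log2 fold change was 0.14.

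Syce1 had 19, 21.5 and 19.2 CPM in WT testis and 25.3, 33.5 and 22.6 in Prmt1-dKO (log2 fold change 0.44, SE 0.16, edgeR FDR 0.0869). Without Prmt1-dKO replicate 3 the FDR of Syce1 was 0.047, and without Prmt1-dKO replicate 2 its log2 fold change was 0.26 (edgeR FDR 0.116). Syce3 had 3.28, 3.19 and 3.71 CPM in WT and 3.65, 7.96 and 4.38 in Prmt1-dKO, where replicate 2 alone was far above WT (0.64, SE 0.31, edgeR FDR 0.177), and the log2 fold change without that library was 0.24. Syce2 had 39.6, 40.2 and 49.5 CPM in WT and 41.1, 53.9 and 35.6 in Prmt1-dKO (0.01, 95% interval -0.37 to 0.39, edgeR FDR 0.968). Tex12 had 6.82, 8.15 and 9.24 CPM in WT and 9.12, 9.64 and 6.66 in Prmt1-dKO (0.07, 95% interval -0.39 to 0.52, edgeR FDR 0.852). Syce2 and Tex12 overlapped fully, and their sign in testis was not stable: both turned to slightly negative values when some of the libraries were left out, and Syce2 also with DESeq2 and without the filter on low counts.

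In testis the germ cell marker sum was 782 to 912 CPM in WT and 650 to 900 in Prmt1-dKO, and the ratio of the members' sum to it was 0.231, 0.232 and 0.261 in WT and 0.306, 0.399 and 0.254 in Prmt1-dKO, which overlapped. Of the 7 germ cell markers 5 had a log2 fold change below 0 and 2 above, with Ddx4 at -0.67 (edgeR FDR 0.0184). Somatic genes moved in the testis comparison too. Of 6 Leydig cell markers 4 were called lower, among them the steroid enzyme gene Cyp17a1 (1295, 1031 and 1237 counts against 36, 42 and 22) and the hormone gene Insl3 (963, 1036 and 1311 against 32, 39 and 45). Of 5 peritubular markers 3 were called lower (Cnn1, Myh11 and Acta2), while the Leydig cell marker Lhcgr was higher (log2 fold change 0.69, edgeR FDR 0.0223). All 9 Sertoli cell markers tested were below 0 with a median of -0.53, 5 with an edgeR FDR below 0.05 and 1 called, Amh, and the sum of the list was 2831 to 3189 CPM in WT and 1975 to 2030 in Prmt1-dKO. Macrophage markers went both ways (4 above 0 and 2 below, median 0.20), with Cd14 called higher (1.81, edgeR FDR 0.0059) and Mrc1 lower at -0.54 (edgeR FDR 0.018). So did the 4 endothelial markers (2 and 2, median 0.03), with Pecam1 at 0.95 (edgeR FDR 0.00199) and Kdr at -0.45 (edgeR FDR 0.0297). Among germline lists, 8 of 10 markers of undifferentiated spermatogonia were above 0, with a median of 0.37 and 5 at an unadjusted p below 0.05 in edgeR, and the median of 6 markers of differentiating spermatogonia was -0.23. The part of these genes in the members' values was not tested. Of the 15 partners, 8 were above 0 and 7 below with a median of 0.06, and none was called, with 3 higher and 1 lower at an unadjusted p below 0.05 in edgeR and 0 called by DESeq2. Of 11 meiotic entry genes, 7 were above 0 and Spo11, the enzyme of meiotic DNA breaks, was called higher (log2 fold change 1.43, SE 0.43, edgeR FDR 0.0455).

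**Figure D2:**
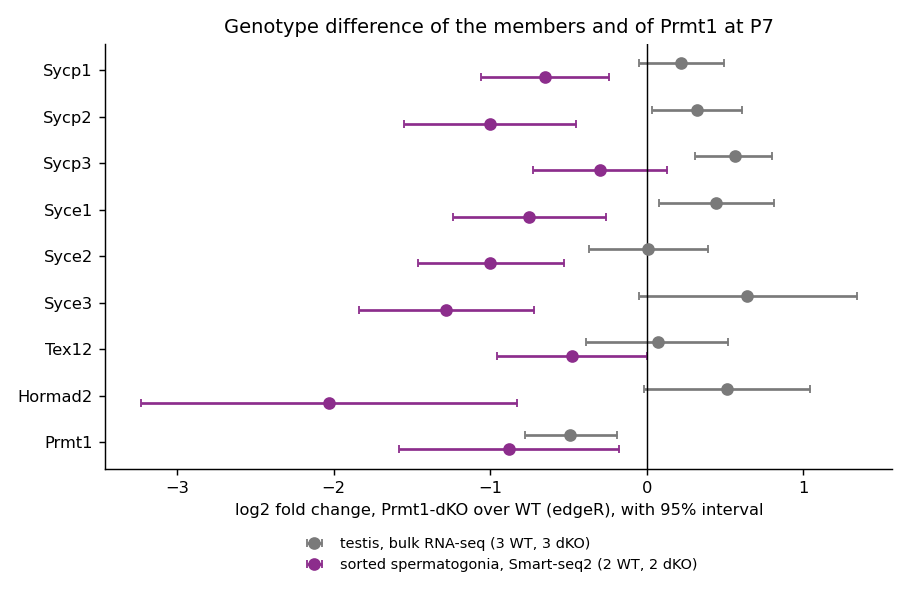
Log2 fold change of Prmt1-dKO over WT (x axis) with its 95% interval for the 8 genes and Prmt1 (y axis), in testis (grey, 3 against 3 libraries) and sorted spermatogonia (purple, 2 against 2), each from its own edgeR fit. All 8 purple points lie left of 0 and all 8 grey points at or right of it, while Prmt1 lies left of 0 in both.

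The genotype differences were compared between assays with an interaction term over all 10 libraries. The difference in sorted spermatogonia was below that in testis for all 8 members, with an FDR below 0.05 in edgeR for 7 of them (4.24% of 19608 genes), of which Sycp2, Syce1, Syce3 and Hormad2 differed by over 2-fold (3.50% of genes). Hormad2 differed by -2.44 (SE 0.49, edgeR FDR 0.00905) and Syce3 by -1.84 (SE 0.44, edgeR FDR 0.0203) on the log2 scale. Tex12 had -0.46 (SE 0.29, edgeR FDR 0.328), and its 95% interval of -1.12 to 0.20 reaches past 0. That fit assumes the same spread in both assays, which the coefficients of variation contradict. With limma-voom and a weight for each assay, Hormad2 alone had an FDR below 0.05 (0.0359; 1.22% of genes), and the other 7 kept their sign with FDR from 0.0526 to 0.49. With a replicate block, 2 members had an FDR below 0.05, Syce1 and Hormad2. The share of all genes lower at that FDR was not counted for this fit, and its number of called genes is given in the last section.

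The genes whose pattern over the 10 libraries was most like the members' mean pattern were, by Pearson's r of log2(TPM + 1), Hormad1 (0.996), Gm37954 (0.996), Phyhipl (0.996), 1700013H16Rik (0.996) and Gm15020 (0.995), out of 16706 genes at a mean of 1 TPM or more. The 10 libraries share 4 groups and 2 assays, so these values mostly describe the step between assays. Hormad1, the paralogue of Hormad2 on unsynapsed axes, had mean levels of 136 TPM in WT and 64.7 TPM in Prmt1-dKO sorted cells and of 14.7 and 16.6 TPM in testis. The members' own r with their mean pattern was 0.935 for Hormad2 to 0.990 for Syce1. Sycp3 overlaps Chpt1, Syce2 overlaps Gcdh and Tex12 overlaps Il18 on opposite strands, and no source used states the strand setting of the counting. Whether reads of these neighbours entered their values was not tested.

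Turning to chromatin, promoters of the members carried H3K4me3, the mark of transcription starts, already at P7. A promoter counts as marked here if 2 or more of the replicate lists have a summit no further than 3000 bp from one of the gene's transcript starts. At P7 7 of 8 members were H3K4me3-marked (60.7% of 21938 protein-coding genes) and at P14 all 8 (63.1%). Tex12 was the exception, with a peak of 3.19-fold enrichment in 1 of 2 P7 lists. H3K27ac, found at active promoters and enhancers, marked Sycp1, Sycp2 and Syce1 at P7 (30.9% of genes) and all 8 members at P14 (48.9%).

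Peak heights are not comparable between lists of unknown depth, so each promoter peak was ranked within its list by p among the protein-coding genes with a promoter peak, where the percentile 100 is the best. For the axis genes, H3K4me3 peaks of Sycp2 ranked at the percentiles 15.4 and 11.2 at P7 and 90.1 and 69.7 at P14. Sycp3 went from 20.8 and 33.5 to 89.5 and 81.0, and Hormad2 from 4.7 and 9.2 to 35.6 and 44.2. All of these P14 ranks lay above the P7 ranks of the same gene, and Hormad2 stayed in the lower part of the P14 ranking.

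Sycp1 ranked at 19.8 and 13.1 at P7 and at 81.4 and 76.0 at P14. Of the central element genes, Syce1 went from 22.1 and 16.7 to 57.5 and 64.2, Syce2 from 14.9 and 13.6 to 52.2 and 76.9 and Syce3 from 9.5 and 6.5 to 42.5 and 31.9. Tex12, at 0.0 in the first P7 list and without a peak in the second, ranked at 54.5 and 57.4 at P14. The central element genes thus ranked below Sycp1, Sycp2 and Sycp3 on average at P14.

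Of 13015 genes with an H3K4me3 promoter peak in all 4 lists, 30.9% ranked higher in both P14 lists than in both P7 lists, as did 7 of the 7 members with such peaks. A mean difference of at least 20 percentile points upwards was seen in 8.37% of the genes and again in 7 of 7 members, whose differences ran from 29.2 (Syce3) to 66.6 points (Sycp2) with a median of 50.3, beside 1.66 over all genes. The peaks were also wider at P14, with a median ratio of widths of 1.73 in members and 0.97 in all genes; Syce2 peaks were 624 and 390 bp wide at P7 and 875 and 987 bp at P14. With 2 against 2 lists no exact test can go below a two-sided p of 0.33, so the ranks are given without a test. Of the 15 partners, 11 had peaks in all 4 lists, 9 of these were at least 20 points higher and their median difference was 29.7. Other germline genes ranked higher too, with a median difference of 37.4 points for 5 general germ cell genes (4 at least 20 points higher), 30.5 for 5 genes of differentiating spermatogonia (3) and 13 for 8 meiotic entry genes (2). The median was 1.3 points for 7 genes of undifferentiated spermatogonia and -14.6 for 8 Sertoli cell genes.

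For H3K27ac the 3 members with peaks in all lists, Sycp1, Sycp2 and Syce1, ranked higher in both P14 than in both P7 lists (31.1% of 6452 genes) and by at least 20 points (28.8%). Sycp2 had 67.4 and 38.5 at P7 and 94.1 and 93.1 at P14. Here the background was itself shifted, by a median of 8.47 points.

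**Figure D3:**
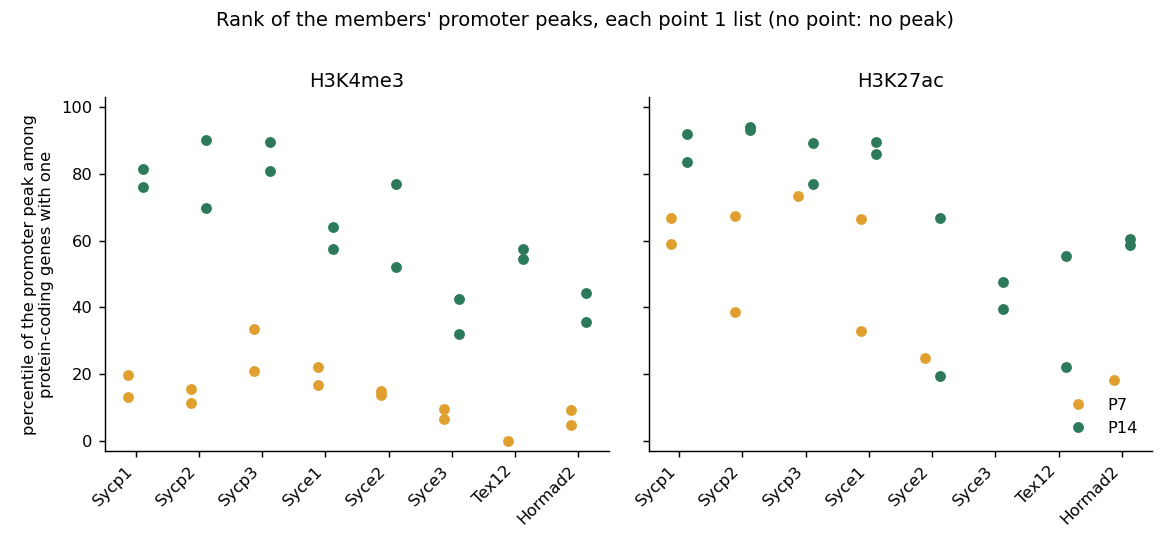
Percentile rank (y axis) of each gene's best promoter peak by p among protein-coding genes with a promoter peak, for H3K4me3 (left) and H3K27ac (right), with the 8 genes on the x axis. Each point is a replicate list at P7 (orange) or P14 (green) and a missing point means no peak; for H3K4me3 the P14 points of every gene lie above its P7 points.

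Of the 5 arginine marks, H4R3me2a, H3R2me2a and H3R8me2a were found on most members at P14, H4R3me1 and H4R3me2s on 2 each. At P7 each mark was on 0 or 1. H4R3me2a, the asymmetric mark laid down by Prmt1, marked Syce2 alone at P7 (15.3% of genes) and 6 members at P14 (49.0%), Sycp1, Sycp2, Sycp3, Syce1, Syce3 and Tex12. H3R2me2a, a product of Prmt6, marked 0 members at P7 (10.9%) and all 8 at P14 (51.3%). H3R8me2a marked 0 at P7 (9.67%) and 7 at P14 (33%), all but Tex12. H4R3me1 marked 0 at P7 (10.8%) and Sycp3 and Syce3 at P14 (29.9%). H4R3me2s, the symmetric mark laid down by Prmt5, marked 0 members at P7 (17.7%) and Sycp2 and Syce1 at P14 (34.2%). For H4R3me1 and H4R3me2s at P14, and for each single mark at P7, counts out of 8 members lie near these shares of genes.

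**Figure D4:**
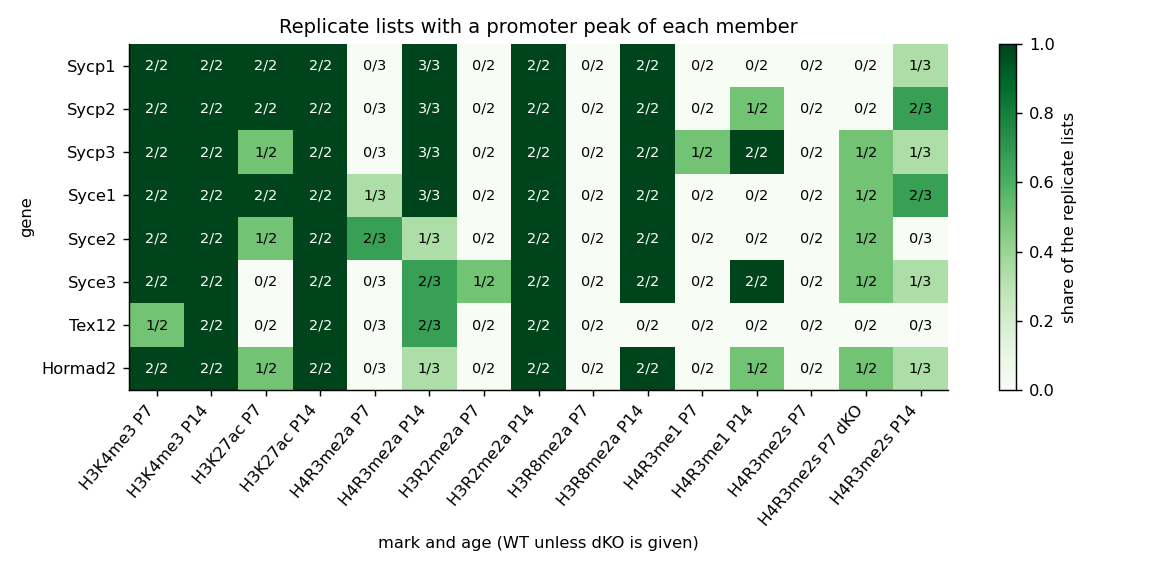
Number of replicate lists with a promoter peak of each gene (y axis) out of the lists available, for every mark and age (x axis, WT unless dKO is given), shaded by the share of lists. H3K4me3 is present at both ages, while the columns of arginine marks at P7 are mostly 0 and those of H3R2me2a and H3R8me2a at P14 are 2 of 2 for 8 and 7 genes.

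The P7 mark on Syce2 rested on unlike positions. In H4R3me2a replicate 1 the summit lay at -2723 bp from the Syce2 start and within reach of the starts of Farsa and Mir7069, and in replicate 3 it lay at 1480 bp. With a window of 1000 bp, no member was marked by any of the 5 arginine marks at P7, beside 24.8% of protein-coding genes. At P14 most summits were close to a start: of 71 arginine methylation peaks at members' promoters, 64 lay within 500 bp and the median distance was 109 bp. Tex12 was again apart, since its H4R3me2a summit lay at -2998 bp in replicate 1, also within reach of Il18, and at -136 bp in replicate 2.

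**Figure D5:**
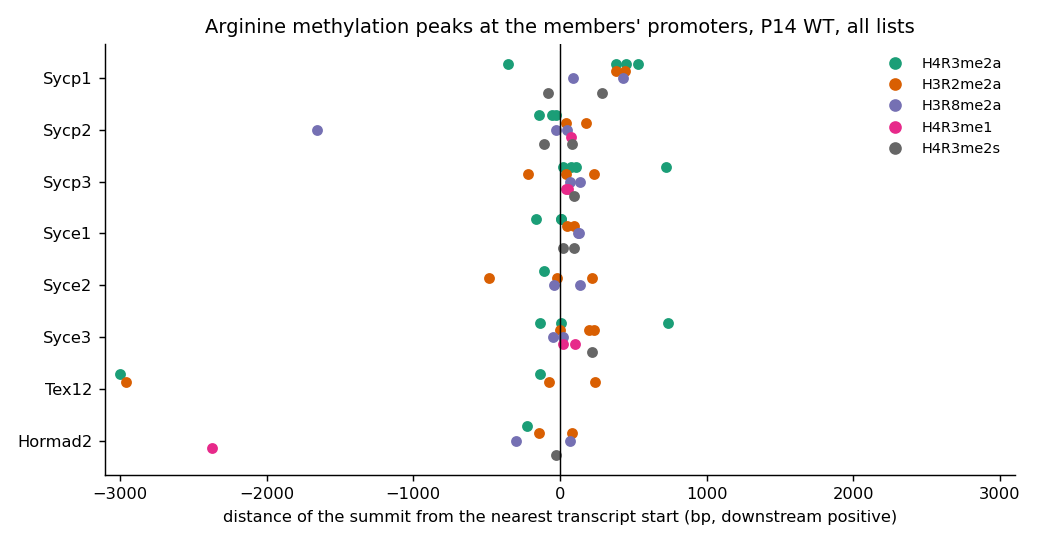
Distance of each arginine methylation peak summit from the nearest transcript start of the gene (x axis, bp, downstream positive) for the 8 genes (y axis) in all P14 WT lists, coloured by mark. Of 71 summits, 67 lie within 1000 bp of a start, and the far ones belong to Tex12, Hormad2 and Sycp2.

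Counted per gene, Sycp2, Sycp3, Syce1 and Syce3 carried 4 of the 5 arginine marks at P14, Sycp1 carried 3, and Syce2, Tex12 and Hormad2 carried 2. At least 1 arginine mark was present on 1 of 8 members at P7 (35.1% of protein-coding genes) and on all 8 at P14 (63.7%). None at P7 and at least 1 at P14 was seen in 7 of 8 members and in 30.5% of protein-coding genes, or in 37.9% of the 13015 genes with H3K4me3 at both ages. At least 3 arginine marks at P14 were found on 5 of 8 members, against 38.6% of protein-coding genes and 61.0% of those with H3K4me3 at both ages. The share of all 8 members with 3 or more at P14 was thus near that of H3K4me3-marked genes in general, and these shares were not tested against each other. Tex12, not H3K4me3-marked at P7, is outside the group with H3K4me3 at both ages, though the counts out of 8 include it. All 5 members with 3 or more marks lie inside that group. Of the 15 partners, 7 carried at least 1 arginine mark at P7 and 11 at P14.

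The strongest arginine peak at P14 by rank was that of Sycp2 in H3R2me2a replicate 1, with a summit 44 bp downstream of a start, 5.84-fold enrichment over the local background and the percentile 98.6 among all peaks of that list. In replicate 2 the same promoter had 3.17-fold enrichment and the percentile 54.7, so the ranks of single peaks varied widely between replicates. Syce1 had H3R8me2a peaks with 4.8-fold and 5.71-fold enrichment (percentiles 92.3 and 97.1), 123 and 127 bp downstream. Sycp3 had H4R3me2a peaks with 4.72-fold, 4.38-fold and 3.38-fold enrichment (percentiles 96.9, 94.6 and 72.5), 76, 20 and 109 bp downstream of a start. The peaks of replicates 1 and 2 reach into the Sycp3 sequence printed above and that of replicate 3 begins downstream of it. Its peaks and those of Syce1 recurred within about the same stretch in all lists of these marks.

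The lists differed in length, with 15361 to 24193 peaks for the 4 arginine marks other than H4R3me2s at P7 and 29030 to 55908 at P14. When each list was reduced to its best 15361 peaks, 1 member carried an arginine mark at P7 (28.1% of protein-coding genes) and 7 at P14 (43.8%). Single marks then covered fewer members at P14, with H4R3me2a on 3 (29.1% of genes), H3R2me2a on 3 (26.1%) and H3R8me2a on 4 (20.7%). With peaks of q at most 0.01 only, 0 members carried an arginine mark at P7 (2.94% of genes) and 5 at P14 (34.3%). By mark, H4R3me2a was then on 2 members at P14 (19.4% of genes), H3R2me2a on 3 (28.2%), H3R8me2a on 3 (11.6%), and H4R3me1 (10% of genes) and H4R3me2s (6.5%) on 0. H4R3me2s was uneven at P14, with 5, 0 and 3 members in replicates 1, 2 and 3, beside 41.87%, 31.54% and 34.15% of protein-coding genes. These 3 lists held 33814, 18423 and 22256 peaks.

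H4R3me2s was the only mark profiled in both genotypes. In the 2 WT lists at P7 no member had a promoter peak, although 48.9% of protein-coding genes had one in at least 1 list. In the 2 Prmt1-dKO lists 3 and 2 members had one, beside 27.43% and 23.02% of genes. These were Sycp3, Syce2 and Syce3 in replicate 1 and Syce1 and Hormad2 in replicate 2. Thus 5 of 8 members had one in at least 1 list (40.7% of genes) and in no WT list (13.5%). None was in both lists, for which the share of genes was 9.77%. Most of these peaks were weak: fold enrichment was 2.47 for Sycp3, 3.03 for Syce2, 3.08 for Syce3 and 2.51 for Syce1, and up to 4.4 for Hormad2, whose summit lay at -131 bp. No member kept a peak with q at most 0.01, which 1.42% and 0.79% of protein-coding genes had in the 2 Prmt1-dKO lists. Among the best 15361 peaks of each list the Prmt1-dKO lists held 0 and 1 members, beside 16.79% and 13.67% of genes. The full lists held 19981 and 36145 peaks in WT and 33941 and 28221 in Prmt1-dKO. With 2 against 2 lists no exact test can fall below a two-sided p of 0.33.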

How the data were processed

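Reads were processed by the authors with fastp 0.23.2, STAR and RSEM on mm10 (per the labels and methods), and each of the 10 deposited gene tables gives expected counts, not normalized, TPM, scaled within the library, and the mean transcript length. For RSEM, neither version nor annotation could be taken from the sources used. The 33 peak lists were called by the authors with MACS2 2.1.0 per sample, and deposited columns give fold enrichment (a ratio over local background), −log10 p and −log10 q; read numbers are unknown. Names of the lists carry a p of 0.005, or a q of 0.05 for H3K4me3.

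Expected counts were rounded and tested within each assay with edgeR 4.0.16 (R 4.3.3; filterByExpr, at least 10 counts and 15 in total; TMM; quasi-likelihood test). Calls needed a 2-fold change with FDR (Benjamini-Hochberg) below 0.05. The procedure was tested on simulated data. DESeq2 1.42.0 and limma 3.58.1 (voom) gave alternatives, and Python 3.11.15 did the rest. Fold changes are log2 of Prmt1-dKO over WT. A promoter reached 3000 bp from any GENCODE vM21 transcript start, and 21938 protein-coding genes formed the background. Genes named besides the members are Prmt1, called genes of each list or else up to 3 with the largest change and a mean of at least 50 counts, the 5 genes most alike, and genes sharing a promoter peak; others named beside library checks were chosen after their values were seen. Members and gene lists were chosen with earlier results of these data known. The planned exact test of members per list is therefore not reported.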

Additional observations from a re-analysis of the deposited data

Results flagged for a closer look

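The genotype difference of 7 members differed between the sorted spermatogonia and the testis, by an interaction term in edgeR over 10 libraries. The difference in sorted cells minus that in testis, on the log2 scale, was -0.78 for Sycp1, -1.23 for Sycp2, -0.77 for Sycp3, -1.11 for Syce1, -0.92 for Syce2, -1.84 for Syce3 and -2.44 for Hormad2. In sorted cells each of these genes was lower in both Prmt1-dKO libraries, and in testis the median was above 0. With a separate weight for each assay (limma-voom), only Hormad2 had an FDR below 0.05. No group held enough samples to look for single aberrant values.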

How the results depend on the processing

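In sorted cells the number of members lower at an FDR below 0.05 was 0 in edgeR, 6 with DESeq2, and 0 to 7 when a library was left out, while the number of genes called was 0, 1902 with DESeq2, and 0 to 7436. All 72 values of single members under these alternatives kept their sign, as did 32 of 32 for the interaction. For the interaction, 7 members had an FDR below 0.05, 1 with limma-voom (1544 genes called in place of 3364) and 2 with the replicate block. In testis 1175 genes were called, and 2152 without the filter on low counts; the number of members higher at an FDR below 0.05 was 1, and 0 to 2 when a library was left out. Near 0, Syce2 in testis turned to -0.01 with DESeq2 and without the filter, and ran from -0.17 to 0.14 when a library was left out; Tex12 then ran from -0.06 to 0.21. The causes were not tested.

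Same-numbered replicates did not deviate together (r of 0.11, -0.31 and -0.21 in testis, 0.01 and 0.01 in sorted cells), so the numbers were not taken as pairs. With the replicate block, 950 genes were called in testis, 0 in sorted cells and 2251 for the interaction.

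Of 8 members, those marked by H3K27ac at P7 were 3 (30.9% of protein-coding genes), but 0 at q of at most 0.01 (10.4%). They were 6 in at least 1 list and 4 or 5 when a list was left out (37.89% and 40.85%). Those with an arginine mark at P7 were 1 (35.1% of genes), but 0 within 1000 bp (24.8%) and 0 at q of at most 0.01 (2.94%). They were 4 in at least 1 list and 0 to 2 when lists were left out. At P14 they were 8 (63.7%), and 5 at q of at most 0.01 (34.3%). H4R3me2s in Prmt1-dKO marked 0 (9.77% of genes), but 5 in at least 1 list (40.7%) and 2 or 3 when a list was left out (23.02% and 27.43%). For the counts given here without a share, the share of all genes was not counted. An H3K4me3 rank at least 20 points higher at P14 was found for 7 of 7 members within 1000 bp (7.91% of genes). The same held at q of at most 0.01 (8.43%) and by any overlap (8.44%), and for 6 of 6 at equal list length (6.75%). Library totals without TMM and equal list length were chosen after seeing the data. The number of reads behind the peak lists is unknown.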
